A study of Mus musculus with 4 samples.

Results

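The miRNAs described here are the 7 mature arms of the red-cell miRNAs miR-144, miR-451a, miR-486a and miR-486b. They were chosen by name, as every row of the deposited table of known miRNAs that is an arm of 1 of these 4 precursors, and they make 7 of its 1038 rows. Small RNA was sequenced from the medial prefrontal cortex, taken from both sides of the brain of C57BL/6J mice. The CUMS group had undergone chronic unpredictable mild stress for 3 weeks, begun when the mice were juvenile, and the control group had not. Each group had 2 libraries, and only mice whose behaviour had changed in all of the study's tests entered the CUMS group, so the groups compare selected mice. A normalized read count here is the reads of a library divided by its DESeq size factor, and the deposited value is the mean of this count over the 2 libraries of a group. The reads of each library were recovered from these means. In each group, library a is the one with the larger size factor and library b the other, and which replicate each is cannot be told.

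miR-144 and miR-451a are made from neighbouring hairpins of 1 transcript that GATA1 switches on in developing red cells, where miR-451a is among the most abundant miRNAs. miR-451a is unusual in that its hairpin is cut by Argonaute 2 and not by Dicer. miR-486 lies in an intron of Ank1, the gene of the red-cell membrane protein ankyrin 1, and is known from striated muscle as well as from red cells. In brain tissue they can come from blood left in the vessels, although miR-486 is also found in other cells.

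In the mouse build GRCm38, which the label mm10 also names, Mir144 lies on the plus strand at chr11:78073005-78073070 and Mir451a on the same strand at chr11:78073170-78073241, with 99 bases between them. The pair lies between genes, 12570 bases after the end of Flot2 and 134 bases from the end of Eral1. Mir451b is annotated on the minus strand at the coordinates of Mir451a. Mir486, the gene of miR-486a, lies at chr8:23142555-23142682 on the plus strand, and Mir3107, the gene of miR-486b, at chr8:23142573-23142662 on the minus strand. The 2 genes share 90 bases within Ank1 (chr8:22974844-23150497, plus strand). No exon of Ank1 overlapped either of them (0 exons), and 15 of 17 annotated Ank1 transcripts span Mir486, which is therefore intronic.

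The sequences of miR-144 and miR-451a are shown because the arms and the place of the mature miRNA in its hairpin set apart the miRNAs compared below. They are from RefSeq on GRCm38.p6, which held 3 of the 7 members, and the capitals mark the seed, bases 2 to 8, which pairs with targets.
mmu-miR-144-3p: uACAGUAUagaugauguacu
mmu-miR-144-5p: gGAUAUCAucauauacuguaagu
mmu-miR-451a: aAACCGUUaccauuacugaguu
No other mature miRNA of the 884 table rows that matched a sequence shared a whole seed with these 3 arms. Bases 2 to 7 of miR-144-3p were shared by miR-101a-3p, shown with these bases in capitals.
mmu-miR-144-3p: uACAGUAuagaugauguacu
mmu-miR-101a-3p: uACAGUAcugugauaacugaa
miR-101a-3p counted 43227 and 34065 reads in control against 40585 and 43072 under CUMS, while miR-144-3p never passed 156 reads.

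The hairpins follow, with the mature arms in capitals.
Mir144: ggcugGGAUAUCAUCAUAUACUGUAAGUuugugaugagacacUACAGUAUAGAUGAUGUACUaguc
Mir451a: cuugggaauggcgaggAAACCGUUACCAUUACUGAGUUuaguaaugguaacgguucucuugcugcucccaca
In the fold predicted by RNAfold, the loop of the Mir144 hairpin had 6 bases and held 0 bases of either arm. The loop of the Mir451a hairpin had 4 bases, and miR-451a, which runs from base 17 to base 38 of 72, covered all 4. The table lists 1 arm of miR-451a against 2 of each other precursor.

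The libraries held 9589323 to 10783592 reads on known miRNAs, so that the 3 reads taken as a floor are 0.278 to 0.313 RPM, the reads of a miRNA for each 1000000 reads of its library. The 14 arms of the miR-183 and miR-200 clusters took 9.32% of the reads of control library b and 0.0393 to 0.0722% of the others, and this share lowers the RPM of all other miRNAs in that library. The labelled tissue was checked on miRNAs abundant in neurons: miR-9-5p had 501927 to 689083 reads, miR-128-3p 159595 to 215452 and miR-124-3p 23152 to 33239 in the 4 libraries.

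All 7 arms had reads in every library and a mean of 5 or more in both groups, so a minimum on low values removed none of them. The 5p arms of miR-486 were by far the highest, at ranks 22 and 23 of the 1038 miRNAs by their mean. miR-486a-3p and miR-451a followed at ranks 236 and 239, miR-144-5p and miR-144-3p at ranks 303 and 304, and miR-486b-3p at rank 352. miR-486a-3p and miR-451a overlapped in their levels, and so did both arms of miR-144. Reads of different miRNAs also depend on how well each is ligated and amplified, so this is an order of reads.

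**Figure D1:**
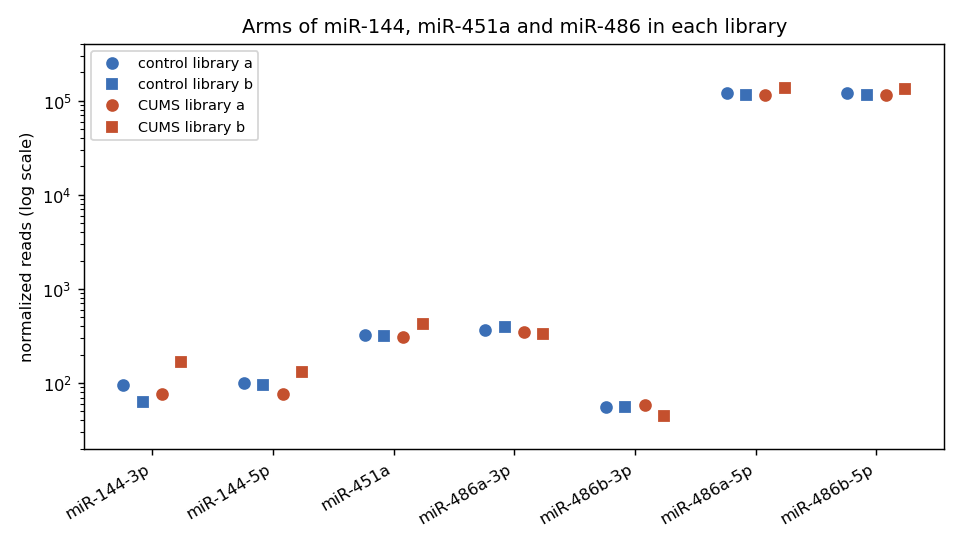
Normalized reads of the 7 arms on a log axis, with 1 point for each library (control blue, CUMS red, circle library a, square library b). The 5p arms of miR-486 lie between 113929 and 134645 and every other arm below 420, and CUMS library b is the highest for both miR-144 arms, miR-451a and both miR-486 5p arms.

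The largest fold between the group means was in miR-144-3p. It is known as the guide arm of miR-144, but here it ranked 304 by mean reads, beside miR-144-5p at 303. It counted 97 and 63 reads in control against 82 and 156 under CUMS, or 94.9 and 63.0 against 77.2 and 165 normalized reads. CUMS library a lay between the control libraries and CUMS library b above all others, so the groups overlapped. The means were 78.9 ± 22.6 and 121 ± 62.3 normalized reads (SD, n = 2 each), a fold of 1.54 and a log2 fold of 0.62. In RPM the CUMS libraries were at 7.86 (95% Wilson interval 6.34 to 9.76) and 16.3 (13.9 to 19.0), so they differed from each other by more than counting error. The control libraries were at 9.21 (7.55 to 11.2) and 5.84 (4.57 to 7.47). These intervals cover counting error only, as no molecular identifiers are named for these reads.

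miR-144-5p, the other arm of the same hairpin, counted 102 and 95 reads in control against 82 and 122 under CUMS. Its lowest and its highest library were both CUMS libraries. The means were 97.4 ± 3.40 and 103 ± 36.8 normalized reads (SD, n = 2 each), a fold of 1.06.

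miR-451a counted 332 and 315 reads in control against 331 and 396 under CUMS. Both control libraries and CUMS library a lay close together, at 312 to 325 normalized reads, and CUMS library b stood above them at 420. The means were 320 ± 6.98 and 366 ± 76.3 normalized reads (SD, n = 2 each), a fold of 1.14 and a log2 fold of 0.19.

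miR-486a-5p, the guide arm of miR-486, counted 121988 and 114837 reads in control against 121286 and 127081 under CUMS, between 1.06 and 1.33% of all reads. The lowest normalized value was in CUMS library a and the highest in CUMS library b, at 114199 and 134645. The means were 117057 ± 3204 and 124422 ± 14458 normalized reads (SD, n = 2 each), a fold of 1.06. miR-486b-5p gave nearly the same numbers, with 122275 and 115117 reads in control against 121000 and 126765 under CUMS. With 2 precursors on opposite strands of the same 90 bases, these counts may hold the same reads, and they are not independent measurements.

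miR-486a-3p, a passenger arm, counted 371 and 392 reads in control against 369 and 312 under CUMS. In normalized reads, 363 and 392 stood against 347 and 331, so that both CUMS libraries lay below both control libraries. The means were 377 ± 20.5 and 339 ± 11.9 (SD, n = 2 each), a fold of 0.898 and a log2 fold of -0.15. In RPM the groups overlapped, with 35.2 and 36.4 in control against 35.4 and 32.5 under CUMS. miR-486b-3p had the fewest reads of the 7 arms over the 4 libraries, 57 and 55 in control against 62 and 42 under CUMS, and its groups overlapped at a fold of 0.929.

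No arm passed a test of the group difference fitted across all miRNAs. Among the 719 miRNAs that reached 5 reads in any library, edgeR's quasi-likelihood test called 0 (0.0%) at an adjusted p of 0.05, and 30 (4.17%) had an unadjusted p under 0.05. None of the 7 arms was among those 30 (0 of 7). miR-144-3p had a fitted log2 fold of 0.57 with an unadjusted p of 0.208 and an adjusted p of 0.860. The adjusted p of the other arms lay between 0.930 and 0.984 in edgeR, and DESeq2 gave 0.998 for all 7, with 0 of 719 called and 24 at an unadjusted p under 0.05. In DESeq2 the standard error of the log2 fold ran from 0.18 for the 5p arms of miR-486 to 0.52 for miR-486b-3p, so a difference of the size seen in miR-144-3p was not detectable for the arms with few reads. RNA was isolated from each mouse and the paper calls its duplicates biological, but the labels do not say that each library is 1 mouse. The p-values measure the spread between these libraries, of which a part may be technical.

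Past a fold of 1.5 upward, 1 of 7 arms was found, miR-144-3p, against 75 of 628 miRNAs whose mean reached 5 in either group (11.9%). The share was lower among miRNAs whose mean reached 50, as that of all 7 arms did, at 10 of 372 (2.69%). With edgeR's TMM scaling in place of DESeq size factors, miR-144-3p was at a log2 fold of 0.58 and 0 of 7 passed, as was the case without control library b, at 0.35. Downward, 0 of 7 passed, against 86 of 628 (13.7%), or 19 of 372 (5.11%) with a mean of at least 50. Both CUMS libraries lay above both control libraries for 0 of 7 arms, against 114 of 628 (18.2%), and below for 1 of 7, miR-486a-3p, against 109 of 628 (17.4%). The mean was higher in CUMS for 5 of 7 arms and for 331 of 628 miRNAs (52.7%), and the median log2 fold was 0.08 over the arms and 0.02 over all. With 7 arms, these counts do not set them apart from all miRNAs.

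**Figure D2:**
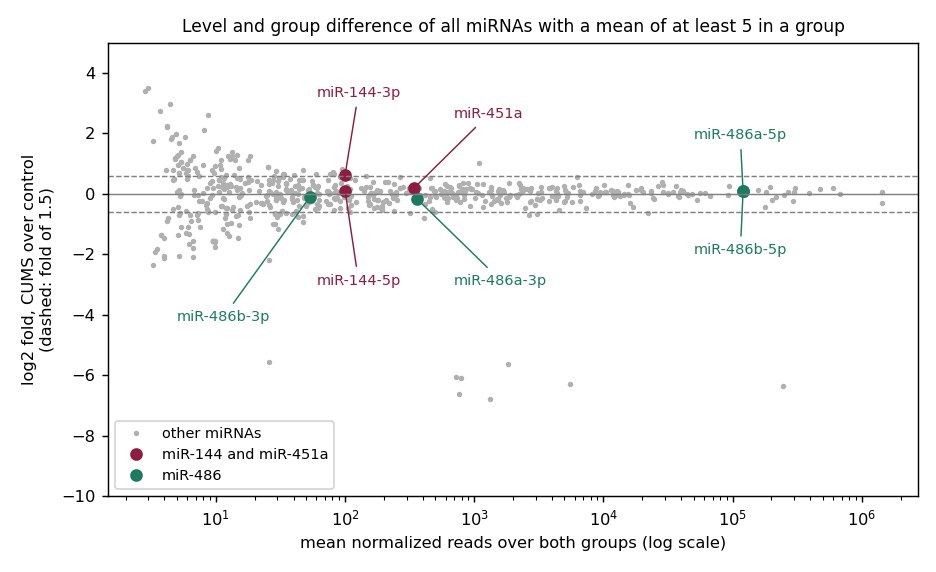
Log2 fold of the mean normalized reads, CUMS over control, against the mean of both groups (log axis) for the 623 of 628 miRNAs whose mean reached 5 in either group, leaving out those with no reads in 1 group. The 7 arms lie within the spread of other miRNAs at their level, with miR-144-3p at 0.62 just past the dashed line of a fold of 1.5. The points below -5 are arms of the miR-183 and miR-200 clusters.

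The red-cell cluster was next compared with miR-486. Summed over miR-144-3p, miR-144-5p and miR-451a, the cluster counted 531 and 473 reads in control against 495 and 674 under CUMS. The normalized sums were 519 and 473 against 466 and 714, a fold of 1.19 (log2 0.25). The 4 arms of miR-486 summed to 239344 and 230309 normalized reads in control against 228534 and 269330 under CUMS, a fold of 1.06 (log2 0.08). Both sums were lowest in CUMS library a and highest in CUMS library b.

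The reads of miR-486 were 461 and 487 times those of the cluster in the control libraries, and 490 and 377 times in the CUMS libraries. Counted on 1 arm each, miR-486a-5p had 367, 365, 366 and 321 times the reads of miR-451a in control libraries a and b and CUMS libraries a and b. The ratio was thus almost the same in 3 libraries and lower in CUMS library b. The log2 ratio of cluster to miR-486 was -8.89 ± 0.06 in control and -8.75 ± 0.27 in CUMS (SD, n = 2 each), a difference of 0.14 with an exact two-sided permutation p of 1.0. With 2 libraries against 2, this test cannot go below 0.333. It was run on 6 ratios, and all 6 had an adjusted p of 1.0.

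CUMS library b stood apart within its group in the same direction for the cluster and the 5p arms of miR-486, by different amounts. It had 2.14 times the normalized reads of CUMS library a for miR-144-3p, 1.67 times for miR-144-5p, 1.35 times for miR-451a and 1.18 times for miR-486a-5p. It was the lowest library for both 3p arms of miR-486. Over 370 miRNAs whose mean reached 50 in either group and that had reads in every library, CUMS library b was the highest for 119 (32.2%) and the lowest for 107 (28.9%). The pooled SD of log2 normalized reads within groups was 0.62 for miR-144-3p and 0.37 for miR-144-5p, above the upper quartile of 0.31 of these 370 miRNAs. It was 0.22 for miR-451a, near the median of 0.20, and 0.12 for both 5p arms of miR-486.

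Without CUMS library b, the fold of miR-144-3p turned to a log2 of -0.032, that of the cluster to -0.090 and that of miR-486 to -0.039, and 6 of the 7 arms had the other sign. Without CUMS library a they were 1.07, 0.53 and 0.20. Within these 4 libraries, the upward fold of miR-144-3p thus rested on 1 library. The paper lists miR-144-3p among its raised miRNAs and also reports a rise by quantitative RT-PCR, which was not examined here. miR-486a-3p alone among the 7 arms lay on the same side of 0 with each of the 4 libraries left out, at -0.21 to -0.10.

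**Figure D3:**
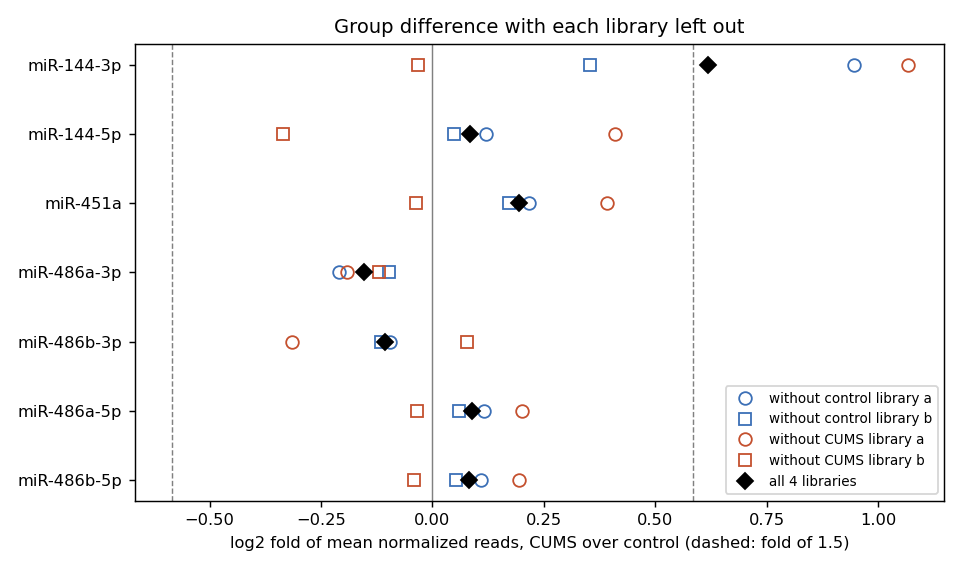
Log2 fold of CUMS over control for each arm with all 4 libraries (black diamonds) and with 1 library left out (open symbols), with dashed lines at a fold of 1.5. Leaving out CUMS library b (red squares) moves miR-144-3p from 0.62 to -0.032 and miR-144-5p to -0.33.

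The proportions of arms within a library do not depend on how libraries are scaled. Of the reads of both miR-144 arms, miR-144-3p made 48.7 and 39.9% in control against 50.0 and 56.1% under CUMS. The groups did not overlap, but the 95% Wilson interval of CUMS library a, 42.4 to 57.6%, held the value of control library a, and the exact permutation p was the smallest possible, 0.333. miR-451a made 62.5 and 66.6% of the cluster in control and 66.9 and 58.8% in CUMS (exact permutation p = 1.0). The 3p arms made 0.175 and 0.194% of the miR-486 reads in control and 0.178 and 0.139% in CUMS (exact permutation p = 0.667). CUMS library b was therefore the highest in the share of miR-144-3p and the lowest in the shares of miR-451a and of the miR-486 3p arms.

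The 2 miR-486 5p counts differed by a small and steady amount whose sign followed the group. miR-486a-5p minus miR-486b-5p was -287 and -280 reads in control against 286 and 316 under CUMS, or -0.235 and -0.243% against 0.236 and 0.249% of the reads of miR-486b-5p. The exact permutation p was 0.333, the smallest possible. The sign is also seen in the deposited group means, 117057 against 117337 in control and 124422 against 124120 in CUMS. For comparison, miR-199a-3p and miR-199b-3p, another pair of arms counted from 2 precursors, had equal counts in all 4 libraries. For the 3p arms, miR-486a had 6.51 and 7.13 times the reads of miR-486b in control and 5.95 and 7.43 times in CUMS.

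**Figure D4:**
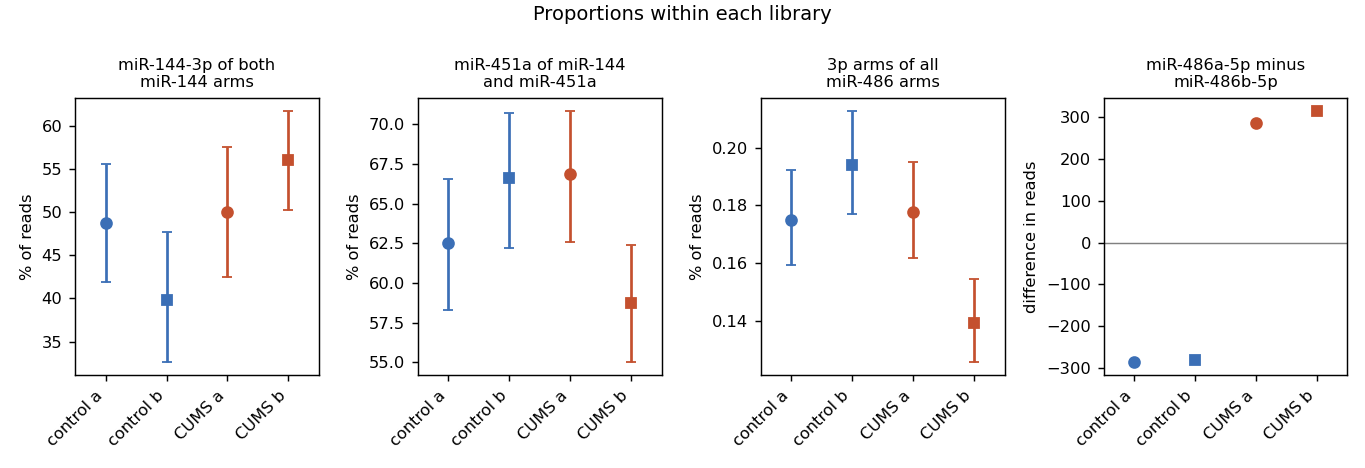
Proportions in each library (control blue, CUMS red, circle library a, square library b), with 95% Wilson intervals in the first 3 panels and no interval in the last. The share of miR-144-3p runs from 39.9 to 56.1%, the share of the miR-486 3p arms from 0.139 to 0.194%, and the difference of the miR-486 5p counts is below 0 in both control libraries and above 0 in both CUMS libraries.

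Other cell types carry the same miRNAs or travel with blood, and their miRNAs were read beside the members. In bulk tissue, fewer cells of a type and less RNA per cell cannot be told apart. None of the tested miRNAs of these lists had an unadjusted p under 0.05 in edgeR's quasi-likelihood test. Of all 719 miRNAs tested, 30 (4.17%) did. Listed miRNAs with too few reads to enter this test have no p-value.

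Of 7 leukocyte arms, 5 reached a mean of 5 in either group, with a median log2 fold of 0.02. Of these 5, 0 passed a fold of 1.5 upward, beside 11.9% of all 628 miRNAs, and 1 downward, beside 13.7%. The 1 was miR-223-3p, the defining miRNA of myeloid cells, at 25 and 5 reads in control against 4 and 14 under CUMS. miR-150-5p, a lymphocyte miRNA, had 2701 and 3541 against 4238 and 2158 reads, and miR-142a-5p, a miRNA of blood cells, 1386 and 1165 against 1436 and 1483. The other arm of that hairpin, miR-142a-3p, had 51 and 64 against 43 and 43 reads, a fold of 0.756. It was the 1 arm of this list whose groups did not overlap in normalized reads. Both of its CUMS libraries lay below both control libraries, as for 17.4% of all 628 miRNAs. The summed leukocyte level was highest in CUMS library a and lowest in CUMS library b, at 4087 and 4783 against 5394 and 3933 normalized reads. This order was set by miR-150-5p: without it the sum was 1445 and 1244 against 1404 and 1646, highest in CUMS library b. Most of the remaining sum was 1 arm, miR-142a-5p, at 1356 and 1165 against 1352 and 1571 normalized reads.

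The endothelial arms of miR-126a, which mark vessel walls, summed to 13692 and 12754 normalized reads in control against 13020 and 14763 under CUMS. This sum had its highest value in CUMS library b, as did the cluster and 119 of 370 miRNAs whose mean reached 50 (32.2%). Neither of the 2 arms passed a fold of 1.5 (median log2 fold -0.02), beside 11.9% upward and 13.7% downward of all 628 miRNAs. Both CUMS libraries lay below both control libraries in normalized reads for 1 of the 2, miR-126a-3p (fold 0.904), beside 17.4% of all 628 miRNAs. It had 1850 and 1869 against 1843 and 1500 reads.

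Striated muscle is another known source of miR-486, and its defining miRNA, miR-1a-3p, had 2 and 0 reads in control against 0 and 8 under CUMS. Of 7 muscle arms listed, 6 had a row and 3 reached a mean of 5. Of these 3, 1 passed a fold of 1.5 upward, beside 11.9% of all 628 miRNAs, and 0 downward, beside 13.7%. The 1 was miR-499-5p, at 2 and 4 against 5 and 9 reads. The median log2 fold of the 3 was -0.37. The summed level was 242 and 362 normalized reads in control against 217 and 214 under CUMS. Nearly all of it was miR-133a-3p, with 229 and 348 against 206 and 178 reads. Both CUMS libraries lay below both control libraries for miR-133a-3p (fold 0.669), beside 17.4% of all 628 miRNAs. They lay above for miR-499-5p, beside 18.2%. The liver miRNA miR-122-5p had 0 and 0 reads in control against 1 and 1 under CUMS, under the floor of 3 reads in every library.

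Of 10 further miRNAs that are abundant in red cells but widely expressed, 9 reached a mean of 5 in either group. miR-15b-5p passed a fold of 1.5 upward and miR-185-5p downward (1 each), beside 11.9% and 13.7% of all 628 miRNAs. The median log2 fold of the 9 was -0.05. miR-16-5p, the highest of them, had 11896 and 14333 reads in control against 12057 and 12941 under CUMS. miR-25-3p had 5774 and 6976 against 5467 and 4937 reads, miR-92a-3p 4794 and 6099 against 5655 and 4445, and miR-93-5p 1492 and 1366 against 1237 and 1453. Both CUMS libraries lay above both control libraries for 3 of the 9, beside 18.2% of all 628 miRNAs. These 3 were miR-15b-5p (fold 1.57), miR-210-3p (1.47) and miR-106b-5p (1.18). Both CUMS libraries lay below for 1 of the 9, miR-25-3p (0.822), beside 17.4% of all 628. The summed level was highest in control library b and not in CUMS library b. The part of red cells, leukocytes, vessel walls or muscle in the values of the 7 arms was not tested.

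Of the brain lists, 5 neuronal arms had a median log2 fold of 0.19 and 3 oligodendrocyte arms of -0.21. In either list 0 passed a fold of 1.5, beside 11.9% upward and 13.7% downward of all 628 miRNAs. Both CUMS libraries lay above both control libraries for 1 of the 5 neuronal arms, miR-124-3p (fold 1.32), beside 18.2% of all 628 miRNAs. Beside 17.4% of all 628, both lay below for all 3 oligodendrocyte arms, miR-338-3p (0.864), miR-219a-2-3p (0.782) and miR-219a-5p (0.869). The summed levels were 831595 and 698002 against 782446 and 937785 normalized reads for the neuronal arms, highest in CUMS library b. They were 7887 and 8365 against 6162 and 7338 for the oligodendrocyte arms.

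The miRNAs whose profile over the 4 libraries was nearest to the cluster were sought among 363 miRNAs whose mean reached 50, by the root mean square difference of log2 normalized reads centred over the libraries. The 5 nearest were miR-199a-3p and miR-199b-3p (0.05 each), miR-145a-5p (0.07), miR-154-5p (0.07) and miR-190a-5p (0.09). miR-199a-3p had 253 and 248 reads in control against 242 and 325 under CUMS, and miR-145a-5p 154 and 137 against 151 and 218. The 5 nearest to miR-486 were miR-126a-5p, miR-673-3p, miR-1839-5p, miR-383-5p and miR-181c-3p (0.03 each), with miR-126a-5p at 12148 and 10890 reads in control against 11985 and 12434 under CUMS. With 4 libraries these profiles have few values, and many miRNAs share the same order, so the list is a description.

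**Figure D5:**
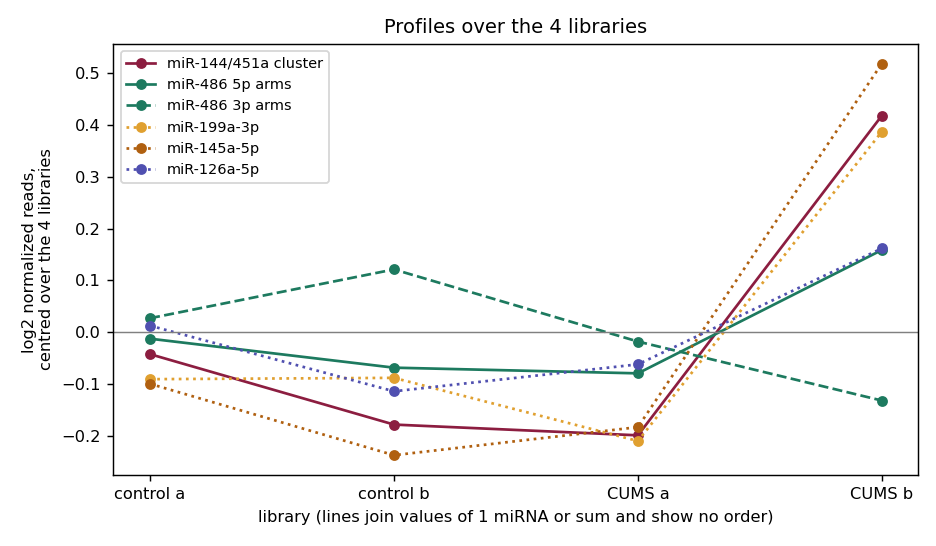
Log2 normalized reads centred over the 4 libraries for the cluster, the miR-486 arms and 3 miRNAs of near profile. The cluster rises to 0.42 and the miR-486 5p arms to 0.16 in CUMS library b, where the miR-486 3p arms are at -0.13.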

How the data were processed

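The small RNA libraries covered 18 to 30 nucleotides. The authors matched reads to miRBase mouse precursors without mismatch. The authors deposited a signal for each of 1038 known miRNAs: the mean over a group of its reads after scaling by DESeq size factors. The labels name Bowtie, DESeq and mm10, and no version for the small RNA steps is given in the sources used here. The table also holds the authors' fold changes, log2 fold changes, p-values and adjusted p-values, which were not used. Its mean columns carry no group names; the study's own table of changed miRNAs shows which is control.

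Each mean was solved as a sum of whole reads times a step for each library. All values came out whole (100% of 1038 in both groups, relative tolerance 1e-09), with a second pair of whole numbers almost as near for 2 miRNAs, none of them a member, giving totals of 9589323 to 10783592 reads. The ratio of means is the main result. edgeR 4.0.16 (quasi-likelihood test, TMM, miRNAs reaching 5 reads in any library) and DESeq2 1.42.0 (R 4.3.3) were run on the recovered reads, with Benjamini-Hochberg adjustment. Both were also run on simulated reads whose changes were larger than those of the 7 arms, which does not show their power for these arms. Ratios were compared by exact two-sided permutation tests (scipy 1.17.1), and hairpins were folded with RNAfold 2.7.2. Named were all 7 arms, up to 4 arms of each list whose mean reached 50 in either group, and the 5 nearest profiles; miR-223-3p, miR-1a-3p, miR-499-5p, miR-15b-5p, miR-210-3p, miR-106b-5p, miR-101a-3p, miR-185-5p and miR-122-5p fall outside this rule and were named after their values were seen. The members and lists were chosen with earlier results of these data known. The sequencing of mRNA was not analysed here. The leukocyte sum without miR-150-5p was added after seeing the data.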

Additional observations from a re-analysis of the deposited data

How the results depend on the processing

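Scaling to RPM, to RPM without the miR-183 and miR-200 clusters, or by TMM, and adding 1 to both means, changed the direction of no arm. With TMM, 0 arms passed a fold of 1.5, since miR-144-3p was then at a log2 fold of 0.58. With 1 library left out, the log2 fold ran from -0.090 to 0.53 for the cluster, from -0.039 to 0.20 for miR-486 and from -0.051 to 0.33 for their difference, and 0 to 1 arms passed a fold of 1.5. Without CUMS library b, miR-144-3p reversed to -0.032, and its range was -0.032 to 1.07. The number of arms past an adjusted p of 0.05 was 0 in every fit. Without control library a, edgeR called 12 of 690 miRNAs, and no arm was among them (0 arms, smallest adjusted p 0.995). A left-out library leaves 1 in its group, assumed to vary like the others. Past a fold of 1.5 the background was 238 up and 265 down of 1038 miRNAs with no minimum, and 10 up and 19 down of 372 with a mean of at least 50. With 2 libraries a group, a change under about the spread of the libraries cannot be seen. No paired analysis was possible because the recovered libraries carry no replicate number.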
